A study of Mus musculus with 6 samples.

Results

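The p53 pathway was followed here through 32 genes: Trp53, which encodes p53, its main regulators, and targets for cell cycle arrest, cell death, DNA repair and metabolism. They were chosen by name as textbook members of the pathway, at a time when earlier results of these data were known, and each matched 1 of the 78409 genes in the deposited table. The cells were nephrogenic stroma, the connective tissue of the nephron-forming outer zone of the fetal kidney, from wild-type CD1 mice at embryonic day 18. Kidneys were pooled, and PDGFRa-positive cells were sorted in a medium with the kinase inhibitor Y27632, and cultured for 18 h with fetal bovine serum on coverslips coated with the silicone PDMS. Before seeding, the coverslips had been incubated with bovine fibronectin at 500 ng/mL (low adhesion, 3 libraries) or at 50000 ng/mL (high adhesion, 3 libraries). The 3 litters were each split over both substrates, so low and high libraries form 3 pairs; how many animals made a pool is not stated. The libraries held 12596249 to 13508257 counts, so that 1 count stood for 0.074 to 0.0794 CPM, the count scaled to a common library total.

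The p53 protein is a transcription factor that is kept low by the ubiquitin ligase Mdm2 and its partner Mdm4, and Mdm2 is itself a p53 target, which closes a feedback loop. Stress that stabilises p53 raises genes that stop the cell cycle, genes that open the mitochondrial or death receptor route to apoptosis, and genes of nucleotide supply and repair. Several of these genes also answer to other transcription factors, so a target can move without p53. In the fetal kidney, too much p53 activity is known to deplete nephron progenitors.

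Promoter windows from RefSeq (build GRCm38.p6, 250 bases before to 50 bases after a transcript start) were found for 24 of the 32 members, 36 windows in all. They were searched for the p53 consensus half-site, the 10-base pattern RRRCWWGYYY, with no mismatch allowed (R is A or G, W is A or T, Y is C or T). The pattern reads the same on both strands, while a given match need not. A half-site stood in 10 of the 36 windows, or 27.8%, and in 8.36% of all 32851 windows of this length. By gene these are 9 of 24 members (Cdkn1a, Ccng1, Mdm2, Bax, Aen, Ei24, Sesn1, Trp53 and Polk). Windows are shown for 4 classical targets that hold the half-site, and for Plk2 and Fas, members that passed the adhesion test described below and hold none. Capitals mark the half-sites, and Cdkn1a alone holds a pair. These 2 do not adjoin, and stretches with a mismatch are left unmarked. The second Cdkn1a window (chr17:29093519-29093818) held no half-site and is not shown.
Cdkn1a (chr17:29090729-29091028, plus strand): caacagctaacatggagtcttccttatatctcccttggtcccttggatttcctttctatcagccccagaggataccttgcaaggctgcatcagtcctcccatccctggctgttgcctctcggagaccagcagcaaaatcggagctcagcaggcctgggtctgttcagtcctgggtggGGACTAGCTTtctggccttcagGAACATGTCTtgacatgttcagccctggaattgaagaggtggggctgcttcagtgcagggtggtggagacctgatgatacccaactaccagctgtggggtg
Ccng1 (chr11:40755237-40755536, minus strand): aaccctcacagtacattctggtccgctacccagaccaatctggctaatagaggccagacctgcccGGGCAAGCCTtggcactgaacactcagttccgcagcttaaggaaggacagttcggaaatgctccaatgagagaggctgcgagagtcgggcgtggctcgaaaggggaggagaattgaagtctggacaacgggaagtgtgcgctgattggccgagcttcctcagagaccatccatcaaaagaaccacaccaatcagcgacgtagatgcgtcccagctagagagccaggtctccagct
Mdm2 (chr10:117710709-117711008, minus strand): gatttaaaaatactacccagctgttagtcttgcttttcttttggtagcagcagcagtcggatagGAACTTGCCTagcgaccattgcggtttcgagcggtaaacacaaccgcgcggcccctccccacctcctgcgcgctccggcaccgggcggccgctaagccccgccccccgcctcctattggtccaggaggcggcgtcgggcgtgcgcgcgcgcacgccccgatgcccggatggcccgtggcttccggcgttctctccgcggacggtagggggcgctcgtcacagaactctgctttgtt
Bax (chr7:45466849-45467148, minus strand): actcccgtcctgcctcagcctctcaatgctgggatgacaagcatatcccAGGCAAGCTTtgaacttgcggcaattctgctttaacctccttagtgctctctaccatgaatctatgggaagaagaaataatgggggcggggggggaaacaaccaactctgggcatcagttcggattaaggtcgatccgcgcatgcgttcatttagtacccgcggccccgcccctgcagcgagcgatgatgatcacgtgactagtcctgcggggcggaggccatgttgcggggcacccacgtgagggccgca
Plk2 (chr13:110394794-110395093, plus strand): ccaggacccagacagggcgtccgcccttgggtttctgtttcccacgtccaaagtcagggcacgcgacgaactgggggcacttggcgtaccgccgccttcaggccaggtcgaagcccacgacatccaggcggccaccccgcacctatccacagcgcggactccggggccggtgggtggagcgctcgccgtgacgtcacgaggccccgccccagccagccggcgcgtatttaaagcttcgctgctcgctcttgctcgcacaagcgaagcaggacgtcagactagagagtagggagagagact
Fas (chr19:34290409-34290708, plus strand): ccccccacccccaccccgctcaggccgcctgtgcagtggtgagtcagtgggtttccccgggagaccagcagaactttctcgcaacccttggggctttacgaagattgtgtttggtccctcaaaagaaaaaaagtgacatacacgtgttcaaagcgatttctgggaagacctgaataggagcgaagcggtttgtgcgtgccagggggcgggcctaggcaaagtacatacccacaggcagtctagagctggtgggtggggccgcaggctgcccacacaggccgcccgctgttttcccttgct
A match describes these letters only and does not show that p53 binds there. Nor does the lack of a match show that a gene has no p53 site, since only 300 bases per window were searched. None of the 6 members with a window that passed the adhesion test (Plk2, Plk3, Gdf15, Tigar, Fas and Ak1) held a half-site, and all 9 that held one did not pass. By gene, 37.5% of the 24 members and 9.55% of all 27025 genes with a window held a half-site. With 6 genes, no difference from these shares can be read. For Perp and Pmaip1 no window was at hand.

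High adhesion raised 6 members and lowered 2, while Trp53, Mdm2, Cdkn1a and Bax did not pass the test. The genes that rose were the death genes Pmaip1 and Perp, the kinases Plk2 and Plk3 of the arrest group, the secreted factor gene Gdf15 and the metabolic gene Tigar. Those that fell were the death receptor gene Fas and the adenylate kinase gene Ak1. Of 31 members tested, 8 passed, or 25.8%, against 9.55% of all 14834 tested genes (quasi-likelihood test of edgeR blocked on litter, adjusted p under 0.05 over all genes). By direction, 19.4% of members were higher and 6.45% lower, against 4.71% and 4.83% of all genes. The median log2 fold change (high minus low adhesion) over the 31 members was 0.04, and over all tested genes 0.00. Most members moved little, and 24 of 31 had a log2 fold change of less than 0.2 in size. The calls depend on the replicate block: without it Ak1 alone passed, and the other 7 had adjusted p from 0.232 for Fas to 0.857 for Plk2. In that fit 0.243% of all genes passed. Leaving the block out took the standard error from 0.06 to 0.36 for Perp, but only from 0.09 to 0.10 for Tigar. DESeq2 with the block called 3 members, or 9.68%, against 2.74% of all genes. In bulk RNA, fewer cells of a type and less RNA per cell cannot be told apart.

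**Figure D1:**
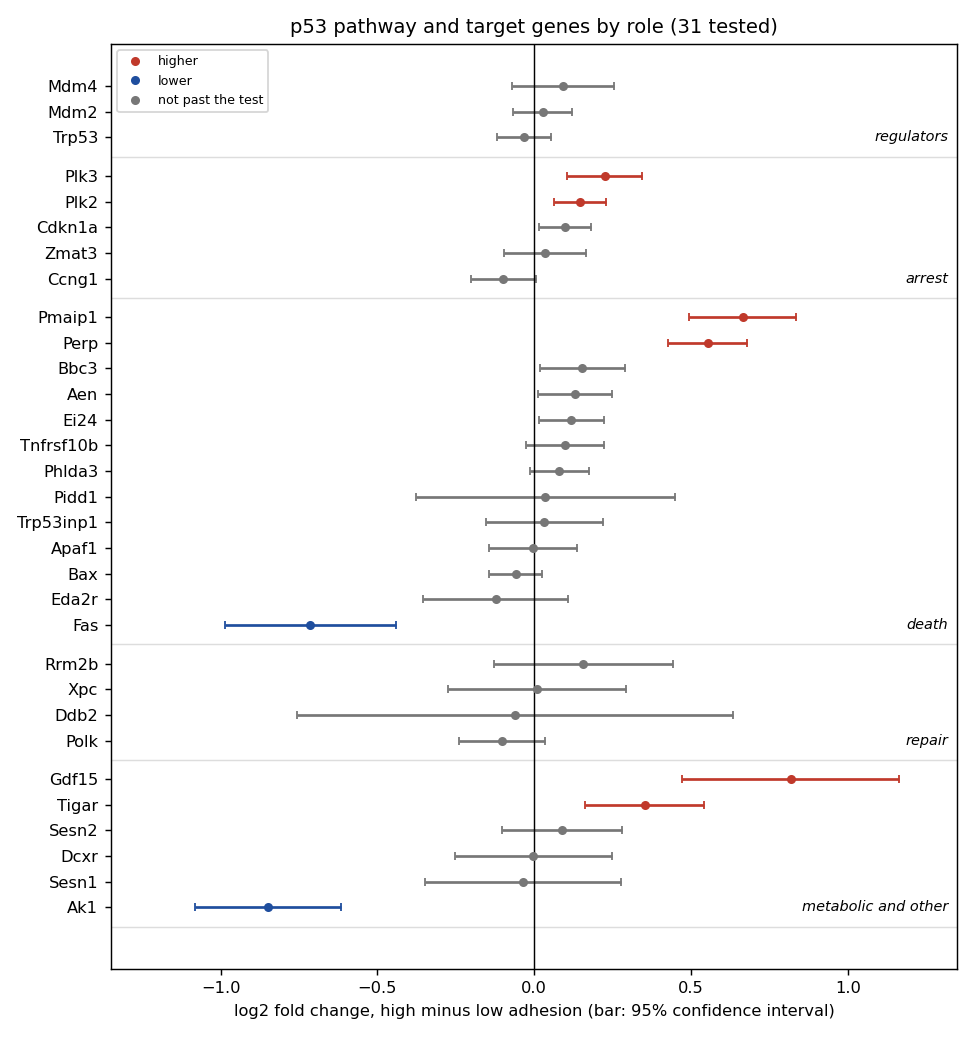
Log2 fold change of the 31 tested members (x axis, high minus low adhesion, with 95% confidence intervals) grouped by role on the y axis, in red or blue where the member passed the test and grey where it did not. The 8 coloured members lie in the arrest, death and metabolic groups, from -0.85 for Ak1 to 0.82 for Gdf15, and none among regulators or repair genes.

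Among the regulators, Trp53 (ENSMUSG00000059552) was at 370, 346 and 344 CPM in the low libraries of litters 1, 2 and 3, and at 380, 310 and 353 CPM in the high ones. The groups overlapped, with litter 2 lower and litters 1 and 3 higher at high adhesion, and the log2 fold change of -0.03 had a 95% interval of -0.12 to 0.06 (edgeR adjusted p = 0.746). Mdm2 (ENSMUSG00000020184) lay between 116 and 122 CPM at low and between 120 and 125 CPM at high adhesion, a log2 fold change of 0.03 with an interval of -0.07 to 0.12. The upper end of 0.12 for this feedback target is that of the edgeR fit. With limma-voom the log2 fold change was also 0.03 and the standard error 0.05. DESeq2 gave a log2 fold change of 0.03 with a larger standard error, 0.07 against 0.05. Mdm4, which blocks the transactivating part of p53, averaged 18.5 ± 0.833 CPM at low and 19.8 ± 1.12 CPM (SD, n = 3 each) at high adhesion, with an edgeR adjusted p of 0.568. Both inhibitor genes were above in 3 of 3 litters, by amounts that did not pass. Cdkn2a, whose locus encodes a cyclin-dependent kinase inhibitor and the Mdm2 inhibitor Arf, had 1 count in each low library and 5, 0 and 0 counts in the high ones. It was therefore not tested, and 5 of 6 libraries lay under 3 counts, which correspond to 0.222 to 0.238 CPM.

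In the arrest group 2 of 5 members passed (40%, against 9.55% of all genes), both of them kinases. Plk2 (ENSMUSG00000021701), a polo-like kinase of the cell cycle and of stress responses, stood at 425, 298 and 359 CPM at low and 464, 339 and 396 CPM at high adhesion in litters 1 to 3. Every litter went up, but the groups overlapped because litter 1 was high and litter 2 low on both substrates. The fold was 1.11 (log2 0.15 ± 0.04, standard error, edgeR adjusted p = 0.0171). Plk3 (ENSMUSG00000028680), a related stress-activated kinase, had 65.4, 59.5 and 56.1 CPM at low and 78.9, 62.2 and 71.1 CPM at high adhesion. Litter 2 rose least, and the fold was 1.17 (log2 0.22 ± 0.06, standard error, edgeR adjusted p = 0.0122). Neither kinase passed in DESeq2 (adjusted p = 0.123 for Plk2 and 0.213 for Plk3), and neither call held with each litter left out in turn. In those fits the log2 fold change ran from 0.12 to 0.17 for Plk2 and from 0.17 to 0.29 for Plk3. Plk2 did not pass without litter 2 (edgeR adjusted p = 0.0552) or litter 3 (0.16), and Plk3 did not pass without litter 1 (0.092) or litter 3 (0.223).

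Cdkn1a (ENSMUSG00000023067), the cyclin-dependent kinase inhibitor gene that carries much of the arrest function of p53, was at 291, 334 and 323 CPM at low and 332, 346 and 337 CPM at high adhesion. It was above in 3 of 3 litters, most in litter 1, yet the groups overlapped. The log2 fold change of 0.10 had an interval of 0.01 to 0.18, and after adjustment over all genes it did not pass (unadjusted p = 0.0228, edgeR adjusted p = 0.14). Ccng1 (cyclin G1), among the most regular p53 targets in mouse tissue, averaged 134 ± 12.1 CPM (SD, n = 3) on the low and 125 ± 5.21 CPM (SD, n = 3) on the high adhesion substrate, with a log2 interval of -0.20 to 0.00. Zmat3, an RNA-binding protein gene, was at 47.7 ± 3.06 and 49.2 ± 7.76 CPM (SD, n = 3 each). The 5 arrest members had a median log2 fold change of 0.10, and the median was 0.11, 0.08 and 0.05 in litters 1, 2 and 3.

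**Figure D2:**
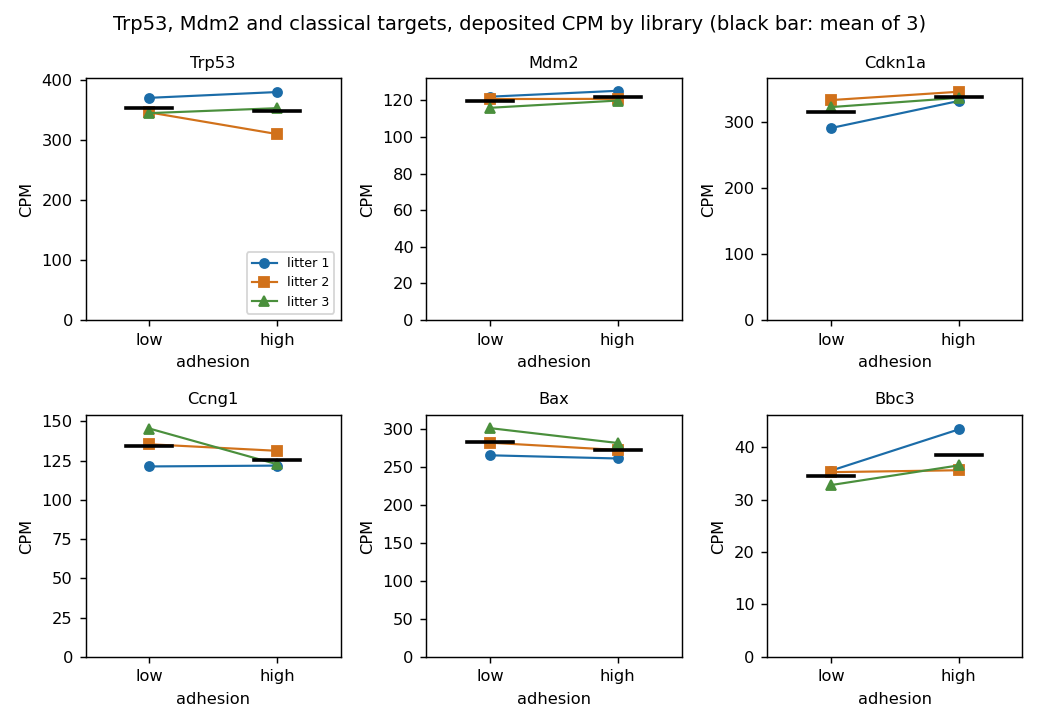
Deposited CPM (y axis) of Trp53, Mdm2, Cdkn1a, Ccng1, Bax and Bbc3 at low and high adhesion (x axis), with lines joining the libraries of 1 litter and black bars for the mean of 3. Low and high libraries overlap in every panel but that of Bbc3, and none of these 6 genes passed the test.

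Of the members that rose, the death genes Perp and Pmaip1 had the lowest adjusted p. Pmaip1 (ENSMUSG00000024521), which encodes the BH3-only protein Noxa that neutralises Mcl1, stood at 20.5, 12.4 and 18.6 CPM at low and 28.9, 23.3 and 29.4 CPM at high adhesion in litters 1 to 3. All high libraries lay above all low ones, with litter 2 lowest on both substrates. It rose 1.59-fold (log2 0.66 ± 0.08, standard error, n = 3 each, edgeR adjusted p = 3.34e-06). Perp (ENSMUSG00000019851), a tetraspan membrane protein gene named for its role in p53-dependent death and also part of desmosomes, was at 49.9, 25.5 and 33.0 CPM at low and 74.0, 35.6 and 50.3 CPM at high adhesion. Each litter rose, but litter 1 at low adhesion was higher than litter 2 at high adhesion, so the groups overlapped. The rise was 1.47-fold (log2 0.55 ± 0.06, standard error, n = 3 each, edgeR adjusted p = 5.27e-07), smaller than the 1.96-fold range between litters at low adhesion. Both genes also passed in DESeq2 and with any 1 litter left out, and neither passed without the replicate block (edgeR adjusted p = 0.295 for Pmaip1 and 0.718 for Perp).

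Fas (ENSMUSG00000024778), the death receptor for Fas ligand, moved the other way. It had 8.66, 7.21 and 7.92 CPM at low and 5.56, 3.57 and 5.40 CPM at high adhesion, or 95 to 114 and 45 to 73 counts. The groups did not overlap. The fall was 1.64-fold (log2 -0.71 ± 0.13, standard error, n = 3 each, edgeR adjusted p = 0.000546). It passed with any 1 litter left out but not in DESeq2 (adjusted p = 0.0901) or without the replicate block (edgeR adjusted p = 0.232). Tnfrsf10b, the TRAIL death receptor gene, averaged 47.5 ± 1.28 CPM on the low and 50.9 ± 2.90 CPM on the high adhesion substrate (SD, n = 3 for each; edgeR adjusted p = 0.38). Eda2r, a further receptor of the same family, had 11.7 ± 1.59 and 10.8 ± 1.04 CPM (SD, n = 3 each, edgeR adjusted p = 0.595).

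**Figure D3:**
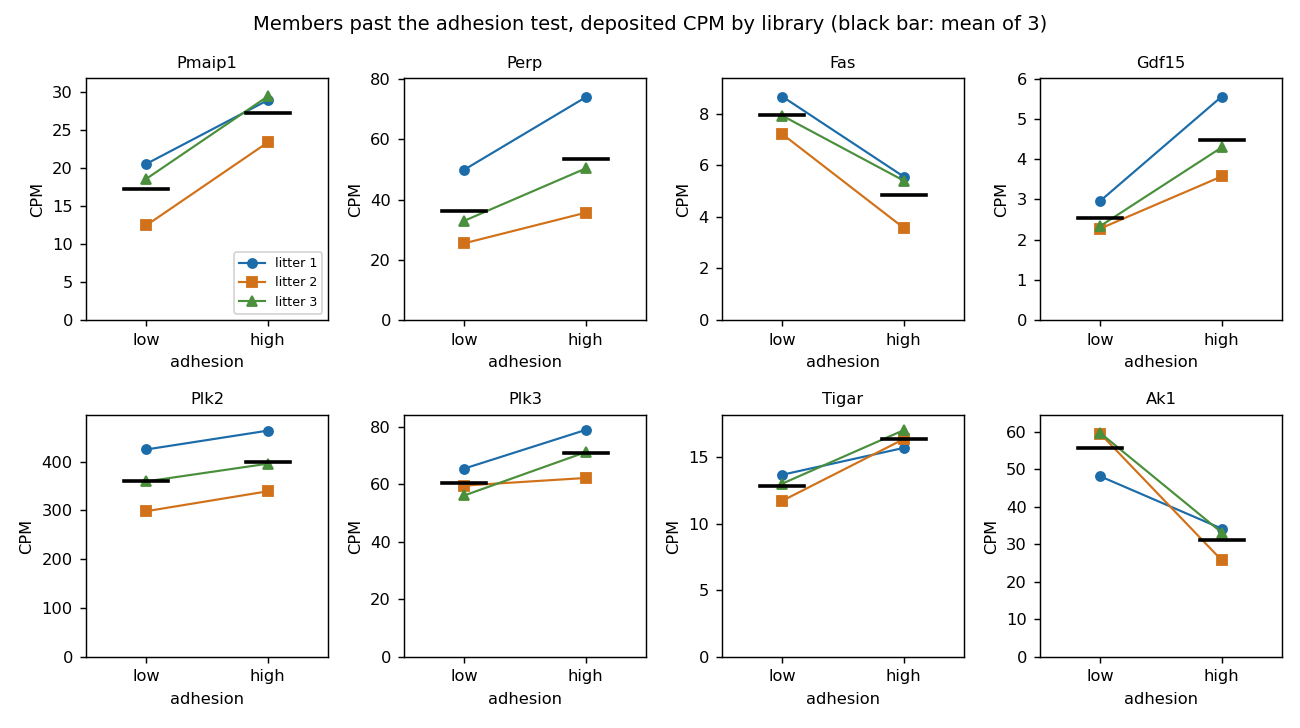
Deposited CPM (y axis, from 0) of the 8 members that passed the test, at low and high adhesion (x axis), with lines joining the libraries of 1 litter and black bars for the mean of 3. Lines of all 3 litters run the same way in each panel, upward for 6 genes and downward for Fas and Ak1, and the groups overlap for Perp, Plk2 and Plk3.

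Of the mitochondrial death genes, Bax (ENSMUSG00000003873), the pore-forming effector, was at 266, 282 and 301 CPM at low and 261, 273 and 282 CPM at high adhesion. It was below in 3 of 3 litters, with a log2 fold change of -0.06 and an interval of -0.14 to 0.02 (edgeR adjusted p = 0.438). Bbc3 (ENSMUSG00000002083), which encodes the BH3-only protein Puma, had 35.6, 35.3 and 32.8 CPM at low and 43.4, 35.6 and 36.6 CPM at high adhesion. These groups did not overlap, by a narrow margin in litter 2, and the gene did not pass (log2 0.15 ± 0.07, standard error, n = 3 each, edgeR adjusted p = 0.162). Apaf1, the scaffold of the apoptosome, had 38.3 ± 4.98 and 38.5 ± 9.10 CPM (SD, n = 3 each, edgeR adjusted p = 0.981). Ei24, an endoplasmic reticulum protein gene, and Aen, a nuclease gene, were each above in 3 of 3 litters without overlap of the groups, and neither passed (edgeR adjusted p = 0.152 and 0.171). Phlda3, a repressor of Akt, was at 121 ± 6.77 and 129 ± 3.88 CPM (SD, n = 3 each, edgeR adjusted p = 0.324). Trp53inp1, a stress protein gene, and Pidd1, a scaffold for caspase activation, had log2 fold changes of 0.03 and 0.04, with Pidd1 at 1.91 to 2.50 CPM and an interval of -0.38 to 0.45. In the death group 2 of 13 members rose (15.4%, against 4.71% of all genes) and 1 fell (7.69%, against 4.83%). The other 10 did not pass, and the median log2 fold change was 0.08.

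No repair gene passed. Polk, a translesion DNA polymerase gene, was at 32.9, 36.6 and 36.2 CPM at low and 29.2, 36.2 and 33.3 CPM at high adhesion, below in 3 of 3 litters with overlapping groups (edgeR adjusted p = 0.402). Rrm2b, a subunit of ribonucleotide reductase, ranged from 5.00 to 6.91 CPM over the 6 libraries, and Xpc, a sensor of nucleotide excision repair, from 4.92 to 7.83 CPM. Ddb2, a damage sensor of the same repair route, had 0.532 to 1.06 CPM, or 7 to 14 counts, and its log2 interval of -0.76 to 0.63 leaves wide room in both directions at this depth. The 4 repair members had a median log2 fold change of -0.03, with 0.21, -0.01 and -0.13 in litters 1, 2 and 3. The spread over litters (SD 0.17) exceeded that median and was above the 0.03 of the arrest group and the 0.06 of the death group. Medians of 0.10 for arrest, 0.08 for death and -0.03 for repair thus differed by less than the spread between litters of the repair group, and no test was made between the groups. That spread is an SD over 3 litters of the median of 4 genes, with Ddb2 at 7 to 14 counts. It does not measure the error of a difference between groups.

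The remaining members hold both ends of the range. Ak1 (ENSMUSG00000026817), an adenylate kinase that balances ATP, ADP and AMP, was at 48.2, 59.6 and 59.7 CPM at low and 34.2, 25.8 and 33.2 CPM at high adhesion in litters 1 to 3. All high libraries lay below all low ones, and litter 2 fell most. The fall was 1.80-fold (log2 -0.85 ± 0.10, standard error, n = 3 each, edgeR adjusted p = 0.0005), in position 50 by size among the 717 genes that fell. Ak1 was the only member called without the replicate block (edgeR adjusted p = 0.048), where 0.243% of all genes passed, and it passed in DESeq2 and with any 1 litter left out.

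Gdf15 (ENSMUSG00000038508), a secreted stress cytokine of the TGF-beta superfamily, had 2.96, 2.28 and 2.34 CPM at low and 5.56, 3.57 and 4.29 CPM at high adhesion, or 30 to 39 and 45 to 71 counts. The groups did not overlap, and the rise of 1.76-fold (log2 0.82 ± 0.17, standard error, n = 3 each, edgeR adjusted p = 0.00156) was the largest among the members. It held with any 1 litter left out, but not in DESeq2 (adjusted p = 0.229). Tigar (ENSMUSG00000038028), a phosphatase that slows glycolysis, was at 13.7, 11.7 and 13.0 CPM at low and 15.7, 16.4 and 17.0 CPM at high adhesion. These groups were separate too, with a rise of 1.28-fold (log2 0.35 ± 0.09, standard error, n = 3 each, edgeR adjusted p = 0.0132), which did not pass without litter 2 (0.104), without litter 3 (0.0844) or in DESeq2 (0.398). The sestrin genes, whose products restrain the growth kinase complex mTORC1, did not pass (edgeR adjusted p = 0.934 for Sesn1 and 0.665 for Sesn2). Sesn2 was above in litters 1 and 3 and below in litter 2, at 12.9 against 15.1 CPM. Dcxr, a carbonyl and sugar reductase gene, had 7.27 ± 0.589 and 7.27 ± 0.482 CPM (SD, n = 3 each).

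Litter was a source of spread of its own. In the same model, 7 of 31 members (22.6%) differed between litters, against 17.9% of all tested genes (edgeR F-test, adjusted over all genes). They were Perp, Plk2, Apaf1, Pmaip1, Zmat3, Trp53 and Plk3, and 4 of the 7 also passed the adhesion test. Perp (edgeR adjusted p = 4.48e-10) and Plk2 (2.40e-07) were highest in litter 1 and lowest in litter 2 on both substrates. Apaf1 had the opposite order, with 43.5 and 48.8 CPM in litter 2 and 33.6 and 31.6 CPM in litter 1 (edgeR adjusted p = 0.000132). Fas, Gdf15, Tigar and Ak1 passed for adhesion but not for litter (edgeR adjusted p from 0.158 to 0.861). Irrespective of the test, 8 of 31 members (25.8%) had low and high libraries that did not overlap, against 15.4% of all genes. Of these, 6 were higher and 2 lower, against 7.82% and 7.6% of all genes. At high adhesion 13 members were above in 3 of 3 litters (41.9%, against 21.1% of all genes) and 4 were below (12.9%, against 20.2%).

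Beyond these members, 54 further genes of the pathway were listed, and of 51 tested 5 rose and 2 fell, or 9.8% and 3.92%, against 4.71% and 4.83% of all genes. Among further targets, 4 of 23 rose (17.4%) and none fell. Gadd45a, a growth arrest and stress gene, was at 78.6, 39.7 and 43.7 CPM at low and 104, 56.3 and 65.8 CPM at high adhesion (log2 0.49 ± 0.06, standard error, n = 3 each, edgeR adjusted p = 1.56e-06). Rprm, which encodes the arrest mediator reprimo, rose in each litter, from 4.64, 12.4 and 5.36 CPM to levels between 7.77 and 21.4 CPM (edgeR adjusted p = 2.37e-05). Litter 1 was thus high for Gadd45a, and litter 2 for Rprm. The receptor kinase gene Epha2 and the binding protein gene Igfbp3 had log2 fold changes of 0.26 and 0.22 (edgeR adjusted p = 0.000102 and 0.00969). Of 16 upstream kinases and cofactors 2 fell (12.5%) and none rose. Those were the p53 kinase gene Hipk2, from between 57.4 and 61.4 CPM to between 42.4 and 51.5 CPM (log2 -0.40 ± 0.06, standard error, edgeR adjusted p = 7.47e-05), and the DNA damage kinase gene Atm (log2 -0.52 ± 0.15, standard error, edgeR adjusted p = 0.0284). Atm had 40.5 to 80 counts, and its groups overlapped (4.86 to 6.03 CPM at low and 3.21 to 4.96 CPM at high adhesion). In DESeq2, and in edgeR without litter 1, only 1 of the 51 genes fell, so Hipk2 and Atm did not both pass there. Among 12 genes of death execution, Mcl1, the survival protein that Noxa binds, was the single one to pass (8.33%; log2 0.15 ± 0.04, standard error, edgeR adjusted p = 0.0264). Of the p53 relatives, Trp73 had no count in any library, which allows up to 0.238 CPM per library, and Trp63 had at most 1 count per library.

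Other gene lists moved with the called members, and their part in these results was not tested. Of 10 epithelial markers 9 were tested and 5 rose (Krt8, Krt18, Krt19, Cldn6 and Spint2), and their summed level ranged over 317 to 612 CPM at low and over 499.8 to 916 CPM at high adhesion. Krt18 alone made up 63.1% to 80.2% of that sum and, like Perp, was highest in litter 1 and lowest in litter 2 on both substrates. The sum of the other 9 markers, a split chosen after the data were seen, followed that order at high but not at low adhesion. In litters 1, 2 and 3 it was 121, 117 and 107 CPM at low and 181, 172 and 176 CPM at high adhesion. The general epithelial marker Epcam was at 5.58 to 6.38 CPM at low and 6.75 to 8.06 CPM at high adhesion (edgeR adjusted p = 0.1), and Esrp1, an epithelial splicing factor gene, was too low to be tested. Of 5 desmosome genes 3 were tested; Jup fell (log2 -0.19) and none rose, with sums of 140.0 to 168 CPM at low and 124 to 157 CPM at high adhesion. Among 10 targets of the stress factor ATF4, which can also raise Pmaip1, Gdf15 and Sesn2, 7 rose and none fell, with Asns at log2 0.39 and Atf4 itself at 0.19. That sum was 845 to 1015 CPM at low and 948 to 1200 CPM at high adhesion. All 10 interferon-response genes fell, with a median log2 fold change of -0.74, beside the fall of Fas. All 10 also differed between litters, against 17.9% of all genes, and Fas did not pass that test (edgeR F-test, adjusted p = 0.197). The interferon-response sum was 143 to 513 CPM at low and 94.2 to 362 CPM at high adhesion.

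**Figure D4:**
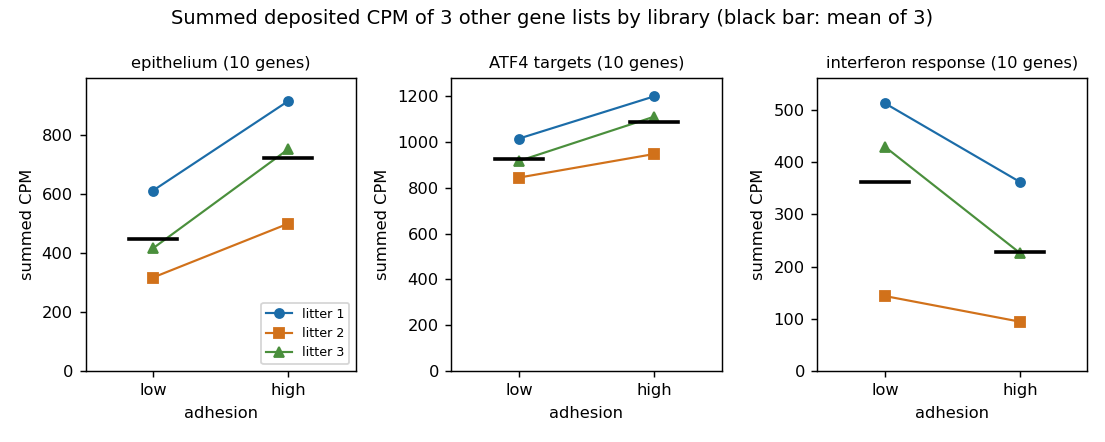
Summed deposited CPM (y axis, from 0) of 10 epithelial markers, 10 ATF4 targets and 10 interferon-response genes at low and high adhesion (x axis), with lines joining the libraries of 1 litter and black bars for the mean of 3. The first 2 sums are higher and the third is lower at high adhesion in 3 of 3 litters, and litter 2 is lowest in every panel.

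The sorted cell type was checked by its defining markers. Pdgfra, on which the cells were sorted, was at 26.6 to 33.6 CPM at low and 16.9 to 26.5 CPM at high adhesion, and it fell in 3 of 3 litters without overlap of the groups (log2 -0.55, edgeR adjusted p = 1.59e-05). Of 7 stromal markers 5 fell, Pdgfra included, and Vim rose. The nephron progenitor marker Six2 was at 12.8 to 21.8 CPM over the 6 libraries, the leukocyte marker Ptprc at 0.531 to 1.49 CPM and the endothelial marker Pecam1 at 0.981 to 2.04 CPM. None of these 3 passed the test. Other listed markers stood higher, such as the leukocyte gene Lyz2 at 10.1 to 31.9 CPM and the endothelial gene Emcn at 16.9 to 38.0 CPM. The 5 erythroid genes summed to 166 to 331 CPM over the 6 libraries. Of 9 leukocyte genes 8 differed between litters, against 17.9% of all genes. Of 5 listed nephron progenitor genes 1 rose (20%, against 4.71% of all genes), namely Cited1 (log2 0.29, edgeR adjusted p = 0.0183). Among 9 leukocyte genes Lyz2 alone passed and rose (11.1%), while 7 had a negative log2 fold change and the median was -0.12. Among 5 endothelial genes Emcn alone passed and fell (20%, against 4.83% of all genes). There 3 had a positive log2 fold change, and the median was 0.02. No erythroid gene passed.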

How the data were processed

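Polyadenylated RNA was sequenced in 6 libraries. Per the submitters' processing notes, reads were handled with STAR 2.7.11 and featureCounts (Subread 2.1.1), along with fastp 0.24.0 and SAMtools 1.22.1, on build GRCm39. Not given in the sources used here are the annotation release, the strand setting and the handling of shared reads. In 1 table the authors deposited estimated counts per gene, some fractional, and CPM, which match CPM recomputed from the counts within 5.1e-11. Values printed per library are the deposited CPM. Fractional counts occurred in 13 of 32 members (for Tigar and Plk3 in 3 of 6 libraries each, for Trp53 and Mdm2 in 4), which makes these uncertain where genes overlap or share reads.

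Counts were rounded and tested with edgeR 4.0.16 in R 4.3.3 (filterByExpr, TMM, robust quasi-likelihood fit), blocked on litter and testing adhesion two-sidedly, and p-values adjusted by Benjamini-Hochberg over 14834 genes at a threshold of 0.05. Standard errors are the log2 fold change over the root of F. The series states that samples are litter-matched; deviations of same-litter libraries correlated across genes at 0.58, 0.58 and 0.36. Residual degrees of freedom were 2 per gene before sharing across genes. Alternatives used DESeq2 1.42.0, limma-voom (limma 3.58.1), other scaling and filters, no block, and each litter left out. All 32 members are named; of other lists, up to 4 called genes of lowest adjusted p. Members and lists were chosen with earlier results of these data known. Desmosome genes, Krt18, Vim, Cited1, Lyz2, Emcn, Esrp1, Trp63 and Trp73 were named after their values were seen.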

Additional observations from a re-analysis of the deposited data

How the results depend on the processing

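Direction and call of every tested member were the same with limma-voom, RLE size factors and no filter on low counts, where 8 members passed as in the reported fit. Over genes of at least 5 CPM 7 of 27 passed, since Gdf15 lies under that level. Without the replicate block 1 member passed (Ak1), with 6 at an unadjusted p under 0.05; over all genes 36 passed in place of 1416, and of the other pathway genes 0 in edgeR (5 at an unadjusted p under 0.05, and 4 in DESeq2 with the block). DESeq2 with the block called 3 members (Perp, Pmaip1 and Ak1) and 406 genes in all. Leaving out 1 litter at a time gave 5 to 7 members, 908 to 1553 genes in all and 4 to 10 other pathway genes. The fewest members (5) and genes (908) were without litter 3, and the fewest other pathway genes (4) without litter 1. The median log2 fold change of the repair members ran from -0.11 without litter 1 to 0.12 without litter 3, within its spread over litters. Cdkn2a, Ddb2, Pidd1 and Gdf15 are limited by low counts. The cause of the difference between tools was not tested.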
